A study of Homo sapiens with 12 samples.

Results

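The nuclear-encoded structural subunits of the mitochondrial respiratory chain and ATP synthase were taken as all protein-coding genes whose symbols begin with NDUFA, NDUFB, NDUFC, NDUFS, NDUFV, UQCR, COX4 to COX8, ATP5F1, ATP5M or ATP5P, or equal SDHA, SDHB, SDHC, SDHD or CYC1, with the NDUFAF assembly factors left out. This rule found 90 genes among the 40591 genes that carry a name. They comprise 38 genes of complex I, 4 of complex II, 10 of complex III, 19 of complex IV and 19 of complex V. NDUFA4 and NDUFA4L2 are counted with complex IV, in which NDUFA4 is now placed, and 2 of the 90 are readthrough genes that join a subunit to its neighbour (NDUFC2-KCTD14 and ATP5MF-PTCD1). Reads were sufficient for a test in 81 members (37, 4, 10, 13 and 17 for complexes I to V). The other 9 had 0 to 9 reads per library: the 2 readthrough genes, NDUFA4L2, the isoforms COX4I2, COX6A2, COX6B2, COX7B2 and COX8C, whose known sites of expression are specialised tissues, and ATP5MGL.

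The libraries are poly(A) RNA-seq of ARPE-19, an established human cell line derived from retinal pigment epithelium (RPE), the pigmented layer that supports the photoreceptors. 4 groups of 3 libraries were compared: wild-type cells (WT), for which the labels name no introduced gene, and stable lines expressing GFP, GSTA4 or OSK for 4 days. GFP is a fluorescent protein used as the control. GSTA4 is a glutathione S-transferase that detoxifies lipid-peroxidation aldehydes, and OSK is read here as the reprogramming factors OCT4 (POU5F1), SOX2 and KLF4. The series title sets oxidative resilience against reprogramming, and the design places the libraries under a gene set enrichment figure. The labels name neither the promoter that drives the introduced genes nor whether the libraries within a group stem from separate lines or cultures, so the p-values measure only the spread between these libraries, which may be technical.

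Electrons from NADH enter the chain at complex I and those from succinate at complex II, pass through ubiquinone to complex III and by cytochrome c to complex IV, where oxygen is reduced. Complexes I, III and IV pump protons, and complex V uses the returning protons to make ATP. Most subunits are encoded in the nucleus and imported, while a small set of core subunits of complexes I, III, IV and V is encoded in mitochondrial DNA. RPE is known to rely strongly on this oxidative route, which leaves glucose for the photoreceptors.

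Totals ran from 12630675 to 17045454 reads per library, and GFP replicate 1 was the shallowest. This library nevertheless had reads in the most named genes, 27349, where the next highest, GFP replicate 2, had 22073. Its share of reads on lines without a gene name was also the highest, at 0.822%. The reason was not tested. The introduced genes matched the labels: GSTA4 averaged 416 CPM (counts scaled to library size after TMM normalisation) in the GSTA4 lines, 8.79 CPM in GFP and 5.47 CPM in WT, and POU5F1, SOX2 and KLF4 averaged 779, 628 and 928 CPM in OSK. The GSTA4 gene averaged 20.2 CPM in OSK, where every library lay above every GFP library. Among the RPE markers, PMEL, TYRP1, MITF, OTX2, SERPINF1 and TYR were detected in every group, whereas RPE65, TTR, RGR and CLDN19 stayed at or near 0. The summed level of 14 RPE markers ran from 693 to 922 CPM in WT, from 1110 to 1330 in GFP, from 577 to 693 in GSTA4 and from 671 to 709 in OSK. In GFP against WT, 8 of the 10 testable markers rose and none fell, where 11% of all genes rose. Against GFP, 7 of the 10 fell and 1 rose in GSTA4, and 9 fell in OSK. Of all genes, 14.6% fell in GSTA4 and 22.8% in OSK. The summed level of 7 fibroblast markers, carried by COL1A1 and PDGFRB, was 766 to 787 CPM in WT, 708 to 776 in GFP, 529 to 558 in GSTA4 and 338 to 397 in OSK. Sums of pluripotent (endogenous), neural retinal and endothelial or blood marker lists stayed between 0 and 5.02 CPM. The part of these shifts in the results on the respiratory chain was not tested. In bulk RNA, fewer cells of a type and less RNA per cell cannot be told apart.

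The promoters of respiratory chain genes are known for binding sites of NRF1, of the ETS factor GABPA (NRF2) and of YY1. Of the 81 tested members, 65 had a RefSeq promoter (GRCh38.p14, 250 bases before to 50 after the start). The NRF1 core TGCGCA, on either strand, occurred in 29.2% of them, in 13.4% of the promoters of all tested coding genes and in 8.42% of all promoters. The GABPA/ETS core CCGGAAG occurred in 30.8%, 19.0% and 10.7% of the same sets, and the YY1 core AAGATGG in 24.6%, 7.3% and 6.06%. At least 1 of the 3 strings stood in 58.5% of member promoters, against 34.0% and 22.2%. The NRF1 string reads the same on both strands, the ETS and YY1 strings can share the letters AAG, and a match describes letters, not occupancy. The promoters of 4 genes are shown, 1 for each pattern of response described further on, cut where the first annotated exon of any overlapping gene begins.

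COX5B, which was higher in both GSTA4 and OSK, has its shown stretch at chr2:97645812-97646039 (plus strand), with the NRF1 string from -133 to -128 and the ETS string from -37 to -31 before the start in capitals.
COX5B: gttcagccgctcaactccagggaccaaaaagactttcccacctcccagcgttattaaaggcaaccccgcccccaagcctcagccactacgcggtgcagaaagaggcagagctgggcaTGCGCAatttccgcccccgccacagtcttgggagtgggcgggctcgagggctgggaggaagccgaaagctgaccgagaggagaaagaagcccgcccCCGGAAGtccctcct
COX6A1, which was higher in OSK against GFP, has its stretch at chr12:120437863-120438089 (plus strand), with the NRF1 string from -215 to -210 in capitals.
COX6A1: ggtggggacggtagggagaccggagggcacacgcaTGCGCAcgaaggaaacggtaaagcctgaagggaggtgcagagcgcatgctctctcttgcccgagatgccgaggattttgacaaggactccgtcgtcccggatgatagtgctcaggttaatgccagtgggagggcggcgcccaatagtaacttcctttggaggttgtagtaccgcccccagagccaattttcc
COX7C, which was called higher in GSTA4 and not in OSK, has its stretch at chr5:86617691-86617903 (plus strand), and its NRF1 and YY1 strings lie outside this stretch, in promoter bases not shown.
COX7C: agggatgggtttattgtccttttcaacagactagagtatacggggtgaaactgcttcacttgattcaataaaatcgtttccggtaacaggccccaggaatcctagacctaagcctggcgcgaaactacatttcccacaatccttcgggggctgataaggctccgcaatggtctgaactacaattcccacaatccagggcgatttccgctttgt
UQCR11, which differed between GFP and WT but not between the GFP, GSTA4 and OSK lines by any call, has its stretch at chr19:1605491-1605712 (minus strand), with the ETS string at -117 to -111 and, on the opposite strand, at -97 to -91.
UQCR11: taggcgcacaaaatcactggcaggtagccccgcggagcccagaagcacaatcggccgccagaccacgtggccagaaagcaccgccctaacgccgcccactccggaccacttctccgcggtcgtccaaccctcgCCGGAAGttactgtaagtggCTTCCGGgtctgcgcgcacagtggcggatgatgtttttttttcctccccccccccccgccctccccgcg
Over the whole 300-base promoters, from which the percentages come, COX5B, COX6A1 and UQCR11 each held the NRF1 and ETS strings, and COX7C held the NRF1 and YY1 strings.

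Against GFP, each of the 5 complexes had members that rose in GSTA4 and none that fell, and in OSK most of the members that rose belonged to complexes I and IV. In GSTA4, 34 of the 81 tested members rose and none fell (edgeR's quasi-likelihood test, Benjamini-Hochberg adjusted p under 0.05 over 15179 genes), or 42.0% of members, where 14.7% of all genes tested rose and 14.6% fell. In OSK, 34 members rose and 2 fell, COX7A2L and ATP5MG, where 23.1% of all genes rose and 22.8% fell. Counting either direction, the 36 OSK calls were close to the background of 45.9%, and 34 of these 36 were in the upward direction. The median log2 fold change of the members was 0.22 in GSTA4 and 0.18 in OSK, against 0.01 and -0.02 over all genes. The comparisons share the GFP libraries, so their values are given side by side and not as separate evidence.

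**Figure D1:**
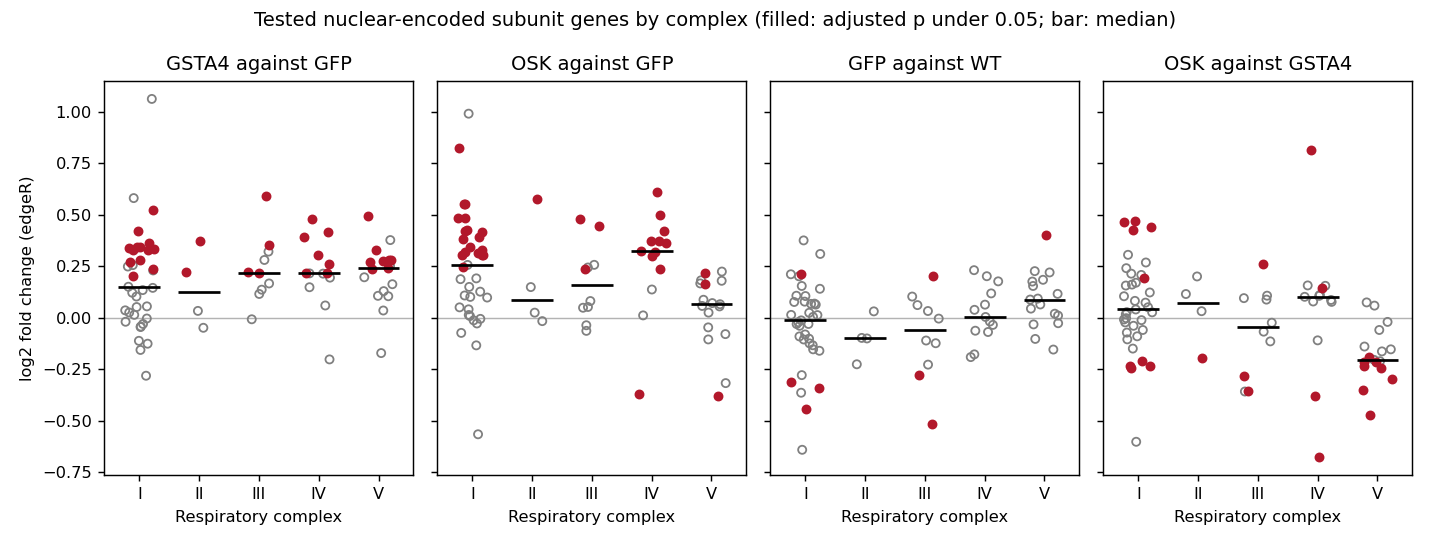
Log2 fold change of each tested subunit (1 point per gene) by complex, in 4 comparisons (each of GSTA4 and OSK with GFP, GFP with WT, and OSK with GSTA4); filled points passed the adjusted threshold and bars mark the median. Complex V sits near 0.24 in GSTA4 and 0.07 in OSK, whereas complex I sits at 0.15 and 0.26.

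The shares that rose in GSTA4 were 13 of 37 for complex I, 2 of 4 for II, 4 of 10 for III, 7 of 13 for IV and 8 of 17 for V. In OSK they were 18, 1, 3, 10 and 2 of the same totals. Median log2 fold changes by complex were 0.15, 0.13, 0.22, 0.22 and 0.24 in GSTA4 and 0.26, 0.09, 0.16, 0.33 and 0.07 in OSK. By these medians complex V stood highest in GSTA4 and lowest in OSK. The OSK place depended on the control, since against WT the complex V median was 0.14, above the 0.03 of complex II and 0.13 of complex III. The OSK value against GFP depended on the scaling, which moved it to -0.01 with library size alone. With that scaling, 39.8% of the OSK calls over all genes were higher, against 50.4% with TMM. There 26 members rose and 3 fell in OSK, where 18.2% of all genes rose and 27.5% fell. All 3 libraries of GSTA4 lay above all 3 of GFP in 47 members and below in 2, where 22.4% and 19.9% of all genes did so (42.3% in either direction). The OSK libraries lay above those of GFP in 39 members and below in 3, against 27.5% and 27.2% of all genes (54.7% in either direction). Leaving out GFP replicate 1, the GFP library with the lowest summed subunit level, gave 22 members higher in GSTA4 and still none lower. In that setting 10.9% of all genes rose and 11.7% fell.

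The direct comparison of the 2 lines gave 8 members higher and 17 lower in OSK than in GSTA4, where 24.1% and 23.8% of all genes were higher and lower. The 25 calls are 30.9% of members against 47.8% of genes in either direction. All 8 calls in complex V were lower in OSK, and its median was -0.20, while the median over all members was 0.02, or -0.05 with scaling by library size alone. Complex I gave 5 higher and 4 lower, complex II 1 lower, complex III 1 and 2, and complex IV 2 and 2. The OSK libraries lay wholly above those of GSTA4 in 14 members and wholly below in 19, against 28.8% and 29.2% of all genes (58% in either direction). Without OSK replicate 1, 9 members were lower in OSK, where 19.5% of all genes were lower.

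Summed over its 38 members, complex I reached 1314 ± 6.59 CPM in WT and 1308 ± 68.1 in GFP, and 1466 ± 35.2 in GSTA4 beside 1509 ± 53.6 in OSK (SD, n = 3). The complex V sum, in the same order, was 1591 ± 39.9, 1652 ± 86.2, 1968 ± 51.4 and 1776 ± 36.0 CPM. Over all 90 members the sums were 4629 ± 61.7, 4673 ± 282, 5456 ± 137 and 5237 ± 103 CPM. The GFP spread came mainly from replicate 1, at 4359 CPM beside 4903 and 4759. Every GSTA4 and OSK library exceeded every GFP and WT library in the sum over all members. The GSTA4 sum was 16.75% above GFP and the OSK sum 12.07%, and for complex V these differences were 19.14% and 7.545%.

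**Figure D2:**
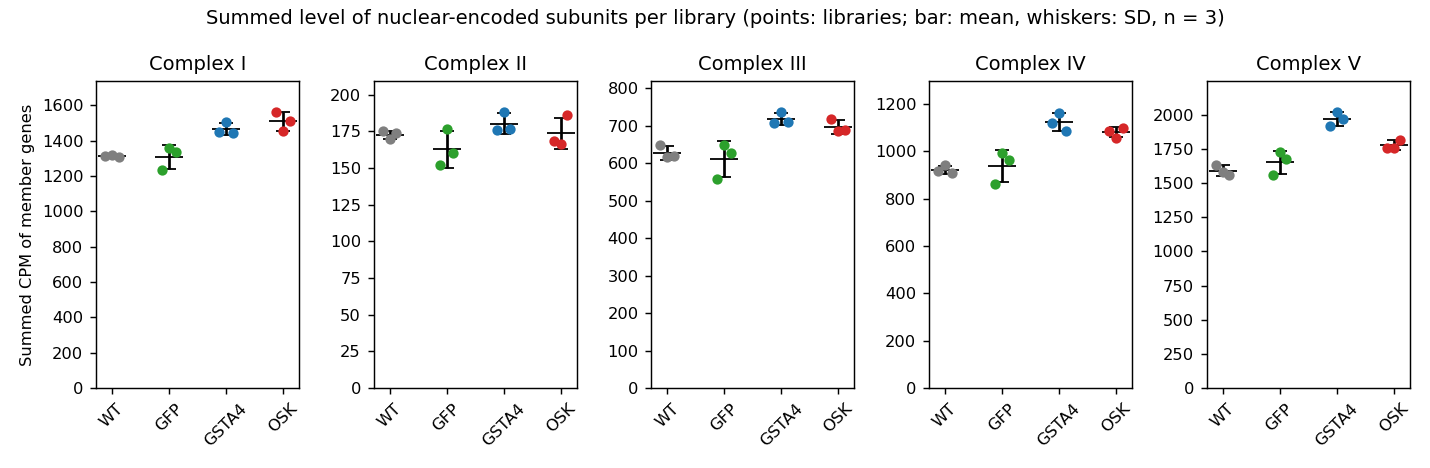
Summed CPM of the nuclear-encoded subunits of each complex in each of the 12 libraries (points) with the group mean and SD (n = 3). The GSTA4 and OSK libraries lie above GFP for complexes I, III, IV and V, and GFP replicate 1 is the lowest GFP point in each of the 5 complexes.

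Complex I, the NADH dehydrogenase, has a catalytic core of which 7 subunits are nuclear, surrounded by accessory subunits. Of the 30 accessory genes, 12 rose in GSTA4 and 16 in OSK, and in OSK 2 of the 7 core genes rose. These core genes were NDUFS1 and NDUFS8. NDUFS1 (chr2:206114817-206159603), the largest subunit and a carrier of iron-sulfur clusters, measured 106, 107 and 112 CPM in WT, 121, 115 and 103 in GFP, 109, 114 and 106 in GSTA4 and 155, 138 and 150 in OSK. Its OSK libraries were all above the other 9, whose ranges overlapped. The log2 fold change was 0.38 ± 0.0656 (SE) in OSK against GFP (adjusted p = 6.64e-05, edgeR, n = 3 a group) and -0.04 in GSTA4 (adjusted p = 0.661), and OSK exceeded GSTA4 by 0.43 (adjusted p = 1.52e-05). NDUFS8, another iron-sulfur subunit, measured 44.9, 52.5 and 52.1 CPM in GFP, 46.7, 46.8 and 43.7 in GSTA4 and 66.6, 61.3 and 58.3 in OSK. It was higher in OSK than in GFP by 0.32 (adjusted p = 0.0055) and than in GSTA4 by 0.44 (adjusted p = 0.000279, edgeR). The WT libraries of NDUFS8, at 56.2, 58.2 and 46.7 CPM, came close to the lowest OSK library but did not reach it.

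NDUFS4, an accessory subunit beside the NADH end of the enzyme whose loss is known in Leigh syndrome, was among the largest changes in both lines. It measured 16.1, 20.5 and 17.9 CPM in WT, 16.7, 18.8 and 19.8 in GFP, 25.9, 27.2 and 26.5 in GSTA4 and 27.8, 23.5 and 26.2 in OSK. Neither line overlapped with GFP or WT. The log2 fold change against GFP was 0.52 ± 0.105 in GSTA4 (adjusted p = 0.000701) and 0.49 ± 0.105 in OSK (adjusted p = 0.000735, edgeR, n = 3). The membrane-arm subunit NDUFB11 rose in GSTA4 by 0.42 (adjusted p = 0.00109), with an OSK value of 0.19 (adjusted p = 0.0934). NDUFA1, another membrane-arm subunit, rose by 0.35 in GSTA4 (adjusted p = 0.0129) and by 0.55 in OSK (adjusted p = 0.000114, edgeR). NDUFA3 rose by 0.36 in GSTA4 (adjusted p = 0.00697) and by 0.30 in OSK (adjusted p = 0.0136), and without GSTA4 replicate 1 its GSTA4 value missed the threshold at 0.0525. These accessory genes thus rose in both lines, except NDUFB11, for which only the GSTA4 value passed.

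The acyl carrier protein NDUFAB1 and NDUFA6, a subunit that binds it, were higher in OSK than in both GFP and GSTA4. NDUFA6 measured 34.0, 38.0 and 31.7 CPM in WT, 30.6, 39.6 and 33.7 in GFP, 31.3, 35.1 and 34.7 in GSTA4 and 51.4, 43.0 and 45.2 in OSK. Its OSK libraries exceeded all 9 others, by 0.42 ± 0.0997 over GFP (adjusted p = 0.00152) and 0.47 over GSTA4 (adjusted p = 0.000574, edgeR, n = 3). NDUFAB1 measured 26.3, 23.9 and 24.5 CPM in WT, 17.9, 23.5 and 20.2 in GFP, 19.2, 22.1 and 21.0 in GSTA4 and 32.5, 27.5 and 26.2 in OSK. It rose in OSK by 0.48 against GFP (adjusted p = 0.00109), but against WT the difference missed the threshold (adjusted p = 0.126, edgeR). NDUFA11, a membrane-arm subunit, was lower in GFP, at 15.0, 15.8 and 14.7 CPM, than in WT, at 20.3, 18.3 and 23.1. GSTA4 gave 22.1, 17.0 and 18.3 CPM and OSK 25.05, 20.5 and 21.2, both overlapping with WT. Its OSK rise of 0.56 against GFP (adjusted p = 0.000764) did not pass against WT (adjusted p = 0.464), and its fall of 0.44 in GFP against WT (adjusted p = 0.0119) rested on WT replicate 3, without which the adjusted p was 0.0606 (edgeR).

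For 3 complex I members few reads limit the values. NDUFV2, the core subunit next to the NADH-binding NDUFV1, averaged only 0.553 to 1.27 CPM, and its log2 fold changes of 1.06 in GSTA4 and 0.99 in OSK did not pass (adjusted p = 0.132 and 0.124, edgeR). Of the reads named for NDUFV2 or its pseudogene, 86% were assigned to the pseudogene, so the NDUFV2 level is uncertain. NDUFA7 was also low, at 0.730 to 1.39 CPM. NDUFA13 averaged 2.37 CPM in GFP and 4.21 in OSK, a rise of 0.82 (adjusted p = 0.0417) that is the largest log2 value among OSK calls of the complex and rests on 24 to 38 reads per GFP library. Per kilobase of transcript, NDUFS5 had the highest level of the complex at 209 CPM per kb and NDUFS1, whose transcript model is 11819 bases long, stood at 10.1. Both were called between the lines, NDUFS5 lower and NDUFS1 higher in OSK than in GSTA4.

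Complex II, succinate dehydrogenase, is wholly nuclear-encoded. SDHA, its flavoprotein, measured 13.1, 11.4 and 12.6 CPM in WT, 12.01, 9.89 and 9.85 in GFP, 12.7, 15.5 and 12.9 in GSTA4 and 16.4, 14.9 and 15.9 in OSK. Both lines lay above GFP, and GSTA4 overlapped with WT. SDHA rose by 0.58 ± 0.126 in OSK (adjusted p = 0.000818) and by 0.37 ± 0.127 in GSTA4 (adjusted p = 0.0317, edgeR, n = 3), the latter lost in 6 alternative settings, among them those without GFP replicate 2, GFP replicate 3 or GSTA4 replicate 2 (adjusted p from 0.0172 to 0.37). Of the reads named for SDHA or its pseudogenes, 78.2% were assigned to the pseudogenes, so the SDHA level is uncertain. SDHC, a membrane anchor, rose by 0.22 in GSTA4 (adjusted p = 0.0222), a call lost against WT and without GFP replicate 1 or 3 or GSTA4 replicate 2 or 3 (adjusted p from 0.0107 to 0.172). The iron-sulfur subunit SDHB had values of 0.03 in GSTA4 and 0.15 in OSK, and the anchor SDHD -0.05 and -0.02, none of which passed. SDHB was the highest of the 4 per length at 35.8 CPM per kb, with a transcript model of 1153 bases. SDHC had the highest mean, 90.5 CPM beside 41.3 for SDHB, but a model of 13566 bases.

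Complex III carries electrons from ubiquinol to cytochrome c. UQCRFS1 (chr19:29205321-29213541), its Rieske iron-sulfur protein, measured 48.9, 43.9 and 48.9 CPM in WT, 48.4, 49.0 and 50.6 in GFP, 73.7, 77.4 and 71.9 in GSTA4 and 61.0, 57.0 and 56.6 in OSK. The 3 levels did not overlap: GSTA4 was highest, OSK intermediate, and GFP and WT lowest. The log2 fold change was 0.59 ± 0.0687 in GSTA4 (adjusted p = 1.29e-06), the lowest adjusted p among members in that comparison, and 0.24 ± 0.0694 in OSK (adjusted p = 0.00828), and OSK was lower than GSTA4 by 0.35 (adjusted p = 0.0002, edgeR, n = 3). CYC1, the heme-bearing cytochrome c1, measured 62.1, 57.2 and 64.4 CPM in WT, 46.5, 58.1 and 52.4 in GFP, 63.7, 66.2 and 70.7 in GSTA4 and 73.4, 66.3 and 74.6 in OSK. Both lines exceeded GFP, by 0.35 (adjusted p = 0.00266) and 0.45 (adjusted p = 0.000136, edgeR), but against WT the GSTA4 difference did not pass (adjusted p = 0.237).

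The core protein UQCRC1 (chr3:48599002-48610976) was lower in GFP than in WT and higher in OSK than in both. It measured 139, 129 and 130 CPM in WT, 99.7, 115 and 115 in GFP, 134, 129 and 119 in GSTA4 and 162, 152 and 145 in OSK. GFP fell below WT by 0.28 on the log2 scale (adjusted p = 0.00677), OSK exceeded GFP by 0.48 (adjusted p = 8.13e-06) and GSTA4 exceeded GFP by 0.22 (adjusted p = 0.0225, edgeR, n = 3). Measured against WT, GSTA4 gave -0.06 (adjusted p = 0.52) and OSK 0.20, so the GSTA4 call exists only against GFP. The small subunit UQCR11 measured 28.5, 23.1 and 19.5 CPM in WT, 17.7, 17.2 and 14.8 in GFP, 17.7, 15.6 and 16.03 in GSTA4 and 17.4, 18.4 and 16.8 in OSK. All 9 libraries with an introduced gene lay below the lowest WT library, and the log2 fold change of GFP against WT was -0.52 ± 0.124 (adjusted p = 0.0053, edgeR, n = 3). The hinge protein UQCRH, highest of the complex per length at 133 CPM per kb, rose in GSTA4 by 0.22 (adjusted p = 0.0122, or 0.0681 without GFP replicate 1). Its near-copy UQCRHL, at 4.56 to 5.81 CPM, passed in no comparison, and reads of the pair may be split between them.

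Complex IV, cytochrome c oxidase, was the complex in which every tested member differed somewhere among the 4 groups (13 of 13 by the F test over groups). Over all members that count was 56 of 81, or 69.1%, close to the 66.9% of all genes. COX4I1 (chr16:85798633-85807044), the widely expressed form of a regulatory subunit and the highest of the complex per length at 309 CPM per kb, measured 246, 246 and 251 CPM in WT, 227, 253 and 246 in GFP, 275, 290 and 278 in GSTA4 and 320, 294 and 317 in OSK. Every library of both lines lay above GFP and WT, by 0.22 over GFP in GSTA4 (adjusted p = 0.00746) and 0.36 ± 0.0579 in OSK (adjusted p = 3.17e-05, edgeR, n = 3). The zinc-binding subunit COX5B measured 42.7, 48.2 and 43.7 CPM in WT, 39.1, 44.7 and 44.3 in GFP, 54.8, 62.7 and 53.8 in GSTA4 and 61.4, 55.2 and 64.4 in OSK. It rose in both lines, by 0.42 (adjusted p = 0.00083) and 0.50 (adjusted p = 6.44e-05, edgeR), and the lines overlapped with each other. COX6A1 measured 17.9, 18.9 and 18.6 CPM in GFP, 22.8, 21.3 and 20.3 in GSTA4, 24.3, 26.0 and 21.4 in OSK and 22.6, 18.7 and 21.8 in WT. Its OSK rise was 0.37 (adjusted p = 0.00545), which did not pass against WT (adjusted p = 0.152), and its GSTA4 value of 0.22 missed the threshold (adjusted p = 0.127, edgeR).

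The COX7 genes of complex IV moved apart. COX7C (chr5:86617904-86620962) measured 169, 183 and 168 CPM in WT, 157, 191 and 195 in GFP, 241, 247 and 225 in GSTA4 and 185, 176 and 187 in OSK. Only the GSTA4 libraries lay above GFP, by 0.39 ± 0.0713 (adjusted p = 0.00027), and OSK, at 0.01 against GFP (adjusted p = 0.908), was lower than GSTA4 by 0.38 (adjusted p = 0.000152, edgeR, n = 3). COX7A2L (chr2:42333546-42425088), known as a factor that joins complexes III and IV into supercomplexes, measured 94.7, 98.5 and 92.3 CPM in WT, 104, 116 and 103 in GFP, 133, 141 and 123 in GSTA4 and 83.3, 83.2 and 82.9 in OSK. It rose in GSTA4 by 0.30 ± 0.0643 (adjusted p = 0.0012) and fell in OSK, with a log2 fold change of -0.37 ± 0.0654 (adjusted p = 9.12e-05, edgeR, n = 3), the one member called in opposite directions. Against WT the directions were the same, at 0.48 and -0.19 (adjusted p = 0.0194 for OSK). COX7A1, known as the heart and muscle form of the subunit, measured 4.54, 5.87 and 5.13 CPM in WT, 5.47, 6.09 and 6.25 in GFP, 5.66, 4.65 and 5.16 in GSTA4 and 7.61, 9.05 and 10.6 in OSK. The OSK libraries were all above the other 9, by 0.61 ± 0.171 over GFP (adjusted p = 0.00597) and 0.81 over GSTA4 (adjusted p = 0.00055, edgeR, n = 3). Its ubiquitous partner COX7A2 rose in OSK by 0.30 (adjusted p = 0.00309), with 0.20 in GSTA4 (adjusted p = 0.0648), and COX7B rose in both, by 0.48 (adjusted p = 0.00173) and 0.37 (adjusted p = 0.00719). Against WT the OSK value of COX7B missed the threshold (adjusted p = 0.138).

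**Figure D3:**
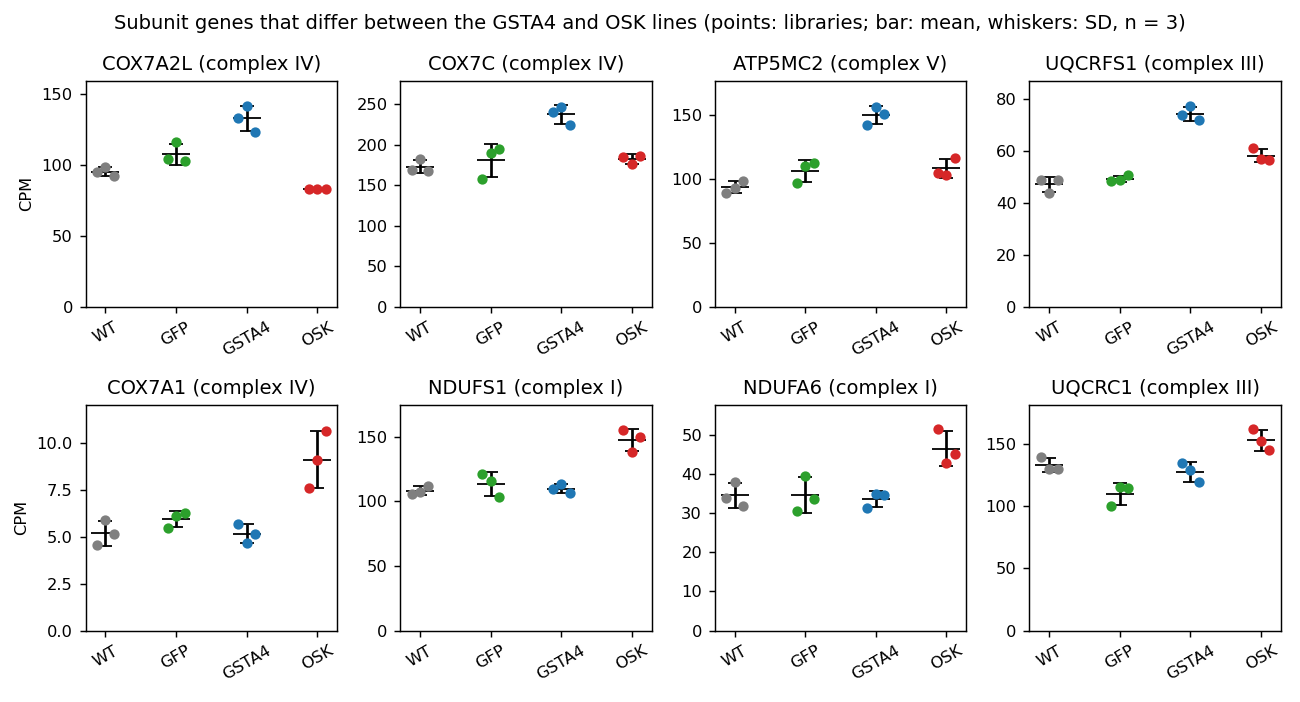
CPM in each library (points) with the group mean (bar) and SD (whiskers, n = 3) for 8 subunit genes called between the GSTA4 and OSK lines, with each vertical axis starting at 0. COX7A2L is higher in GSTA4 and lower in OSK than in GFP, COX7C, ATP5MC2 and UQCRFS1 are highest in GSTA4, and COX7A1, NDUFS1, NDUFA6 and UQCRC1 are highest in OSK.

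In complex V, the ATP synthase, 8 of 17 members were lower in OSK than in GSTA4 and none higher. Its membrane ring is made of c subunits, whose identical mature protein is encoded by ATP5MC1, ATP5MC2 and ATP5MC3. ATP5MC2 (chr12:53632726-53677408) measured 89.0, 93.2 and 98.2 CPM in WT, 96.5, 110 and 112 in GFP, 142, 156 and 151 in GSTA4 and 105, 103 and 117 in OSK. GSTA4 lay above all other libraries, by 0.50 ± 0.0692 over GFP (adjusted p = 1.36e-05), while OSK overlapped with GFP at 0.03 (adjusted p = 0.795) and was lower than GSTA4 by 0.47 (adjusted p = 8.78e-06, edgeR, n = 3). ATP5MC1 measured 28.93, 29.005 and 25.8 CPM in WT, 32.6, 40.0 and 37.8 in GFP, 39.1, 43.2 and 41.4 in GSTA4 and 31.7, 36.1 and 36.7 in OSK. It was lowest in WT, with GFP higher by 0.40 ± 0.0918 (adjusted p = 0.00381), and its sign in OSK depended on the control: -0.08 against GFP (adjusted p = 0.505) and 0.32 against WT (adjusted p = 0.0069, edgeR). ATP5MC3 rose in OSK by 0.17 (adjusted p = 0.0332), a call lost in 7 alternative settings, among them WT as control and those without GFP replicate 1 or 3 or OSK replicate 1 or 3 (adjusted p from 0.0159 to 0.235). ATP5MC1 and ATP5MC2 had their highest mean in GSTA4.

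The catalytic subunits of complex V both rose in GSTA4. ATP5F1A, the alpha subunit, averaged 406, 433, 527 and 454 CPM in WT, GFP, GSTA4 and OSK and rose in GSTA4 by 0.28 (adjusted p = 0.000692), with 0.07 in OSK (adjusted p = 0.359, edgeR). ATP5F1B, the beta subunit and the highest of the complex per length at 260 CPM per kb, averaged 447, 438, 516 and 509 CPM and rose in both lines, by 0.24 (adjusted p = 0.00691) and 0.22 (adjusted p = 0.00743). Its place per length depends on the transcript models, of 1839 bases for ATP5F1B and 5818 for ATP5F1A. ATP5F1B was with ATP5MC3 the only member of the complex called higher in OSK. ATP5MG, the small subunit g of the membrane part, measured 18.3, 17.4 and 19.7 CPM in WT, 23.2, 20.5 and 21.0 in GFP, 20.1, 16.9 and 20.3 in GSTA4 and 14.9, 16.6 and 18.0 in OSK. It was lower in OSK than in GFP, with a log2 fold change of -0.38 ± 0.108 (adjusted p = 0.00644), but not against WT (adjusted p = 0.241, edgeR, n = 3). Besides ATP5MC2, the members lower in OSK than in GSTA4 were ATP5F1A, ATP5F1C, ATP5PB, ATP5PF, ATP5PO, ATP5MC1 and ATP5MK, which span the catalytic head, the stalks and the membrane part. The calls of ATP5PO, ATP5PF and ATP5MC1 (adjusted p = 0.0356, 0.0215 and 0.0313, edgeR) were each lost without OSK replicate 1 and without GSTA4 replicate 3, with highest adjusted p of 0.197, 0.128 and 0.194 over the alternative settings. ATP5PF and ATP5MC1 were also lost without GSTA4 replicate 2, and ATP5PO without GSTA4 replicate 1 or OSK replicate 3.

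Few of these genes differed between GFP and WT. Against WT, 3 members were higher in GFP (NDUFV1, UQCRC2 and ATP5MC1) and 5 lower (NDUFA11, NDUFA2, NDUFB10, UQCR11 and UQCRC1), together 9.88% of members, where 22.2% of all genes passed in either direction. The calls of UQCRC2 (adjusted p = 0.0497), NDUFV1 (0.0331) and NDUFA2 (0.0166, edgeR) were lost in 8, 5 and 3 alternative settings, reaching adjusted p of 0.279, 0.175 and 0.059. UQCRC2 was lost without any 1 WT library or GFP replicate 2 or 3, NDUFV1 without WT replicate 2 or GFP replicate 2 or 3, and NDUFA2 without WT replicate 3 or GFP replicate 1 or 3. The median over members was 0.01. The GFP libraries lay wholly above WT in 6 members and wholly below in 10, against 16.9% and 17.7% of all genes (34.6% in either direction). With WT in place of GFP as control, 36 members rose and 2 fell in GSTA4 (19.7% and 19% of all genes, 38.6% in either direction), and 34 rose and 2 fell in OSK (22.7% of all genes in each direction, 45.4% in both). UQCR11 fell in both, by 0.52 and 0.43 on the log2 scale (adjusted p = 0.00207 and 0.00631, edgeR), NDUFS8 in GSTA4 and COX7A2L in OSK. Complex V gave 11 of 17 in GSTA4 and 7 of 17 in OSK against WT. Against GFP those counts had been 8 and 2.

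Grouped by their calls against GFP, 15 members rose in both lines with no call between GFP and WT, 15 rose in OSK alone and 14 in GSTA4 alone, and 4 that rose in both were lower in GFP than in WT. No call was made for 27 members in the 3 comparisons of GFP with WT, GSTA4 and OSK. The same grouping was not made over all genes, of which 14.7% rose in GSTA4 and 23.1% in OSK. Whether these patterns are particular to the members was thus not tested. A call in 1 line and not the other does not show a difference between lines, for which the direct comparison above is the test.

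**Figure D4:**
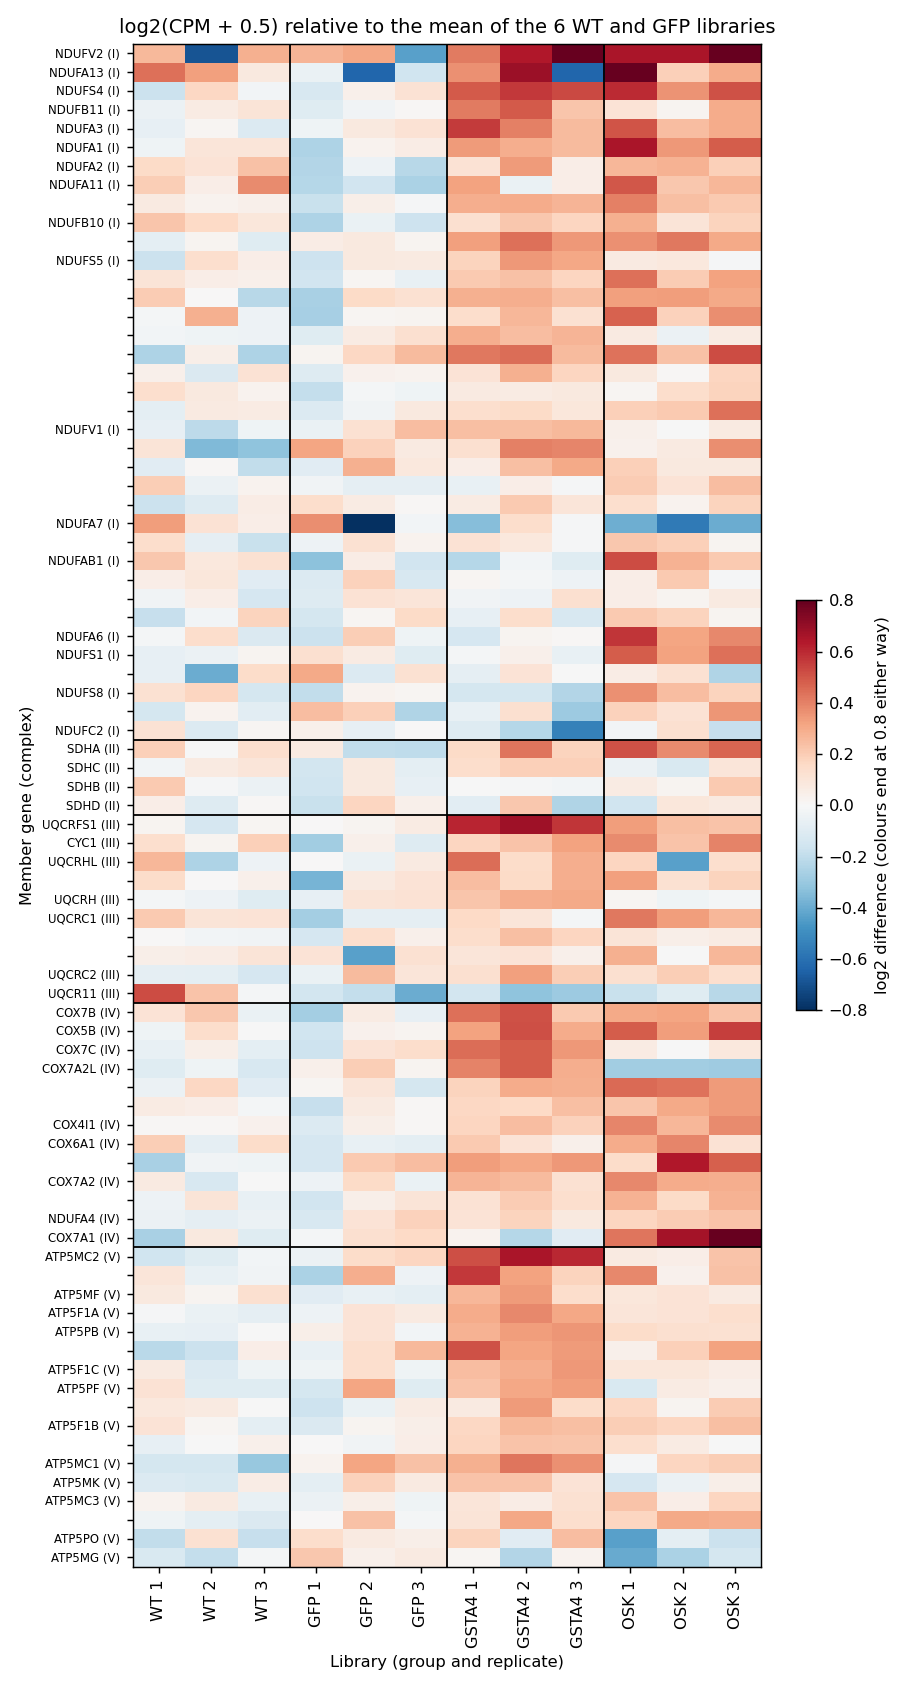
Log2 CPM (with a small constant added) of each of the 81 tested subunits in the 12 libraries, relative to the gene's mean over the 6 WT and GFP libraries, with rows grouped by complex and sorted by the GSTA4 fold change; row names are given for genes described in the text. Red marks higher and blue lower values, and the colours end at 0.8 in either direction. Rows of complex V are mostly redder in GSTA4 than in OSK, where 15 of the 17 had negative values in the direct comparison.

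The 13 subunits encoded in mitochondrial DNA moved in the same direction. Their sum was 53643 CPM in WT and 55561 in GFP, and it reached 67964 in GSTA4 and 63947 in OSK, 22.32% and 15.09% above GFP. In GSTA4 10 of 13 rose and in OSK 8 of 13, with none lower. These are 76.9% and 61.5%, where 14.7% and 23.1% of all genes rose. MT-ND1, a core complex I subunit, rose in GSTA4 by 0.46 (adjusted p = 5.07e-06) and was lower in OSK than in GSTA4 by 0.32, and MT-CO2, a catalytic complex IV subunit, rose in OSK by 0.31 (adjusted p = 0.000166, edgeR). Poly(A) selection affects the capture of mitochondrial transcripts, so their levels are not set against the nuclear ones.

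Assembly factors build the complexes without staying in them, and their counts are read beside the 14.7% of all genes that rose in GSTA4 and 23.1% in OSK. In GSTA4, 4 of 18 tested complex I factors rose, 0 of 4 for II, 0 of 6 for III, 1 of 22 for IV and 1 of 6 for V, and none fell. In OSK, 3 rose and 2 fell for complex I, 1 fell for III, 4 rose for IV, and 1 rose and 1 fell for V. COA1 rose by 0.34 in GSTA4 (adjusted p = 0.00295) and by 1.47 in OSK (adjusted p = 2.98e-12, edgeR), a larger value than any subunit call. The copper chaperone COX17 rose by 0.40 and 0.67, and ATP5IF1, the natural inhibitor of complex V, rose by 0.40 in GSTA4 (adjusted p = 0.000466). TMEM126B, a factor of the complex I membrane arm, rose by 0.32 in GSTA4 and was lower in OSK at -0.22.

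Among 24 regulators of respiratory genes, 4 rose and 3 fell in GSTA4 and 6 rose and 5 fell in OSK, shares near those of all genes. HIF1A, the oxygen-sensing factor, fell in both lines, by 0.64 and 0.66 on the log2 scale. In OSK the nuclear receptor ESRRA rose by 0.60 and PPARGC1A, a coactivator of mitochondrial genes, fell by 0.79, while its relative PPARGC1B rose by 2.34. Of 20 electron carriers and their enzymes, 4 rose (20%) and 2 fell (10%) in GSTA4, and 6 rose (30%) in OSK. Over all genes those shares were 14.7%, 14.6% and 23.1%. GPD2, which feeds electrons from glycerol phosphate into ubiquinone, fell by 0.62 in GSTA4 and rose by 0.39 in OSK.

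The 2 ribosomal protein families were set beside the subunits as other abundant sets of short transcripts. Of 85 cytosolic ribosomal proteins, 57 rose and none fell in GSTA4 (67.1% rose, against 14.7% of all genes). In OSK, 4 rose and 38 fell (44.7% fell, against 22.8% of all genes). Between the lines, 74 of the 85 were lower in OSK (87.1%, against 23.8% of all genes). Their medians were 0.22 in GSTA4 and -0.17 in OSK, so in GSTA4 they matched the subunits' median of 0.22 and in OSK had the opposite sign. Of 77 mitochondrial ribosomal proteins, 17 rose and none fell in GSTA4, and 19 rose and 3 fell in OSK. The shares that rose were 22.1% in GSTA4, against 14.7% of all genes, and 24.7% in OSK, near the 23.1% of all genes. In OSK 3.9% fell, against 22.8% of all genes.

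Subunit transcripts are short, with a median of 1078 bases against 3262 for tested coding genes. Among transcripts of at most 1000 bases, 41.0% of the 39 members and 24.3% of the 534 coding genes rose in GSTA4, and 56.4% and 29% rose in OSK. Among longer transcripts the shares were 42.9% and 15.8% in GSTA4, and 28.6% and 25.7% in OSK. In GSTA4 the members' share was thus similar in both classes, and in OSK it was larger among short transcripts. Among longer transcripts, 4.76% of members and 23.9% of coding genes fell in OSK, with median log2 fold changes of 0.1002 and -0.0044. The part of transcript length in these results was not tested.

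Chromosome 11 holds 7 tested members. Within 5 Mb of NDUFC2, 54.5% of the 55 tested neighbours fell in GSTA4, with 43.2% of 44 near SDHD and 45% of 60 near ATP5MG, and in OSK 52.7%, 40.9% and 40.0% fell. These shares are above the 14.6% and 22.8% of all genes. Near NDUFS3, NDUFS8, NDUFV1 and COX8A, 27.5%, 20.6%, 20.5% and 20.9% of neighbours fell in GSTA4, and 35%, 21.2%, 19.9% and 20.4% in OSK. The GSTA4 values of NDUFC2, SDHD and ATP5MG were -0.28, -0.05 and -0.17, none past the threshold (adjusted p = 0.122, 0.794 and 0.251, edgeR). Near ATP5PF on chromosome 21, 50% of 14 neighbours were lower in OSK than in GSTA4 (23.8% of all genes). Near the other complex V members called lower there, 17.9% to 32.9% were. In GFP against WT, 25.5%, 24.2%, 20.3%, 16.4% and 6.93% of neighbours fell near UQCR11, NDUFA11, NDUFB10, UQCRC1 and NDUFA2 (11.2% of all genes). The part of the neighbourhood in all these members' values, and in the OSK call of ATP5MG, was not tested.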

How the data were processed

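Values are deposited raw counts, whole numbers of reads for each gene in 12 libraries, made by the authors with STAR 2.7.1a and featureCounts 1.6.2, per the submitters' processing notes, which list human and mouse builds with no role. Strand setting, annotation release and treatment of multi-mapping reads are not given in the sources used here, so antisense, overlapping or pseudogene reads could be split. Lines without a gene name (20014 of 60605, 0.485 to 0.822% of reads) were left out. Counts were scaled by TMM and fitted with edgeR 4.0.16 (filterByExpr, quasi-likelihood, all 12 libraries, R 4.3.3). P-values were Benjamini-Hochberg adjusted over 15179 genes at 0.05. SE is the log2 fold change divided by the root of F. The fit was tested on simulated GSTA4 against GFP data, where 84% of 100 genes changed by 1 on the log2 scale were recovered. Of 100 genes changed by 0.3, 6% were recovered, and there were 3 false calls. No other gene was changed in the simulation, whereas 29.2% of all genes passed in the real GSTA4 against GFP comparison. The adjustment was therefore stricter there, and these shares do not give the recovery expected for the members. A value that did not pass does not show that a gene was unchanged. Named genes were, in each comparison, the 10 called members of mean at least 10 CPM with the largest change, the lowest adjusted p in each complex, the SDH genes, CYC1, isoforms and paralogs, members that failed the filter, and up to 2 genes from each other list by adjusted p. Those outside this rule were chosen after their values were seen. Members and lists were chosen with earlier results of these data known. The alternatives were DESeq2 1.42.0, RLE scaling or library size alone, filters, WT as control, a replicate block and each replicate left out. Lengths and positions come from the GENCODE v29 annotation (GRCh38), matched by symbol, and length classes replaced protein size, which was not used here. Each length is that of 1 transcript model per gene, so levels per kb depend on that choice. The single values of 1 member are not reported here.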

Additional observations from a re-analysis of the deposited data

How the results depend on the processing

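Over the settings tried, 37 of 59 called values of named genes kept their call, 22 lost it at least once, and none of the called values changed sign. DESeq2 gave 32 members higher and none lower in GSTA4 against GFP, beside 34 and 0. With DESeq2, 14% of all genes were higher and 14.3% lower. Scaling by library size alone moved the OSK against GFP medians to 0.186 (complex I), 0.0861 (III), -0.00582 (V) and 0.111 (all members), and the OSK against GSTA4 medians to -0.0227 (I), -0.108 (III), 0.0390 (IV), -0.268 (V) and -0.0463 (all). With no filter, the complex IV median in OSK was 0.253 over 19 genes and 11 members were lower in OSK than in GSTA4. Of the 31531 genes then tested, 10.6% were lower. The number higher in GFP against WT, 3 as reported, was 6 with a minimum mean of 1 CPM and 1 with only the 6 libraries compared. The shares of all genes higher were 11%, 12.8% and 8.18% in these 3 settings. With WT as control, 2 members were lower in GSTA4, the OSK medians were 0.183 (I) and 0.140 (V), and ATP5MC1 in OSK, not called against GFP, reversed to 0.32 (adjusted p = 0.0069, edgeR). Apart from what fewer genes or samples give by construction, the cause was not tested.

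Leaving out 1 replicate at a time gave 22 to 33 members higher in GSTA4, 22 without GFP replicate 1. Complex V medians were 0.189 to 0.256 in GSTA4, 0.0264 to 0.119 in OSK and -0.217 to -0.164 in OSK against GSTA4, where 9 to 15 members were lower, 9 without OSK replicate 1. Of all genes, 10.9% to 12.8% rose in GSTA4 and 19.5% to 20.9% were lower in OSK than in GSTA4. In GFP against WT, 1 to 6 members were higher (6 without GFP replicate 1, 1 without GFP replicate 2), 3 to 7 lower (3 without WT replicate 3), and the complex III median was -0.129 to 0.0128. Between 7.23% and 10.2% of all genes were higher there and between 7.3% and 10.4% lower.

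Deviations of same-numbered libraries correlated at -0.0204 to 0.169 (median 0.0344), with 3 of 18 pairs over 0.1. Different-numbered libraries correlated at -0.112 to 0.0875 (median -0.026), with 0 of 36 over 0.1. The 3 pairs joined WT replicate 1 with replicate 1 of GFP, GSTA4 and OSK (0.169, 0.157 and 0.132). The main fit did not pair the libraries, and whether the numbers mark a shared batch was not tested. With the replicate number as a block, 37 members were higher in GSTA4, 35 in OSK and 6 in GFP against WT. The shares of all genes higher were then 15.7%, 24.2% and 12.6%. The 9 members that failed the filter, with 0 to 9 reads per library, could not be compared at this depth. NDUFV2 and NDUFA7 were tested with as few as 2 and 6 reads in a library. At this depth 3 reads correspond to 0.177 to 0.228 CPM.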
